A study of Homo sapiens with 9 samples.

Results

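HLA class I antigen presentation was followed through 9 genes, HLA-B, HLA-C, HLA-E, HLA-F, B2M, TAP1, TAP2, TAPBP and NLRC5, chosen by name from the 26485 genes in the expression tables of MDA-MB-231 cells. The line comes from a human breast cancer of the triple-negative type, which lacks estrogen and progesterone receptors and HER2 amplification. Its cells stably expressed a nonspecific (NS) shRNA, ASAH1 shRNA #1 or ASAH1 shRNA #2, with 3 libraries in each of these 3 groups and no other treatment in the labels. ASAH1 encodes acid ceramidase, the lysosomal enzyme that splits ceramide into sphingosine and a fatty acid. Both ASAH1 hairpins were compared with the same 3 NS shRNA libraries, so the 2 comparisons share their controls. Each hairpin is a single sequence in 1 cell line, so in either comparison alone the loss of ASAH1 and other effects of that hairpin cannot be told apart. The replicates are described as biological, and the sources used here do not say whether the cells of a group came from separate transductions, so p-values measure the spread between these libraries.

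Class I molecules carry peptides from inside the cell to its surface, where CD8+ T cells and natural killer cells read them. HLA-B and HLA-C encode classical heavy chains, HLA-E and HLA-F encode nonclassical ones, and B2M encodes beta-2-microglobulin, the light chain that all of them share. Peptides are cut from proteins by the proteasome, pumped into the endoplasmic reticulum by the TAP1-TAP2 transporter and loaded with the help of tapasin, the product of TAPBP. NLRC5 is the class I transactivator, which works at the class I promoters together with the RFX and NFY factors. Interferons raise the RNA of most of these genes, with IRF1 among the factors that act at their promoters. Tumor cells often carry low class I levels, which hides them from T cells.

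With shRNA #2, the RNA of all 4 heavy chain genes rose against NS shRNA, from 1.48-fold for HLA-E to 1.92-fold for HLA-F, while with shRNA #1 only HLA-E passed the test, at 1.12-fold. The hairpins themselves differed at all 4 heavy chain genes and at B2M. TAP1 and TAP2 rose with both hairpins, and TAPBP and NLRC5 fell with both. All 9 genes passed the filter on low values in every comparison, so none is missing from these counts.

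The class I promoters are shown here because HLA-B, HLA-C and HLA-F moved together with shRNA #2, B2M did not pass the test there, and TAP2 rose with both hairpins. Each stretch holds 190 bases before and 10 bases from the RefSeq start site on (GRCh38.p14), written 5′ to 3′ on the strand of the gene. Capitals mark an IRF core (GAAANNGAA), an inverted CCAAT box (ATTGG) or the core of a CRE (TGACG, the cAMP response element), on either strand.
HLA-B, chr6:31357170-31357369, minus strand: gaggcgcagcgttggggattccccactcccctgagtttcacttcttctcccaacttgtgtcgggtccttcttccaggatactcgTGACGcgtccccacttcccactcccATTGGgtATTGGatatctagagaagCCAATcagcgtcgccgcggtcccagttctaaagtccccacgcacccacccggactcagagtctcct
HLA-C, chr6:31272083-31272282, minus strand: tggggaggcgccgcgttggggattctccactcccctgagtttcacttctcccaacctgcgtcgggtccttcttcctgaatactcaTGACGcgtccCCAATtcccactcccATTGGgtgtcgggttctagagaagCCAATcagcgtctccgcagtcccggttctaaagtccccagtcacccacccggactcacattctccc
HLA-F, chr6:29723244-29723443, plus strand: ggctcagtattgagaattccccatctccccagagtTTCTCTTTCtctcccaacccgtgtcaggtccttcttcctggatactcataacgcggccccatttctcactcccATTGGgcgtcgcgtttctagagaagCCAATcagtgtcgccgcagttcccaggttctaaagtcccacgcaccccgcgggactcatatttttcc
B2M, chr15:44711327-44711526, plus strand: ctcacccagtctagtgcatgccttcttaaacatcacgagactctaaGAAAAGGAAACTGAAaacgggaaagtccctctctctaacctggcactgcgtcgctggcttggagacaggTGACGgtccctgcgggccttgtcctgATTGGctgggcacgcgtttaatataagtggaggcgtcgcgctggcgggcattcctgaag
TAP2, chr6:32838730-32838929, minus strand: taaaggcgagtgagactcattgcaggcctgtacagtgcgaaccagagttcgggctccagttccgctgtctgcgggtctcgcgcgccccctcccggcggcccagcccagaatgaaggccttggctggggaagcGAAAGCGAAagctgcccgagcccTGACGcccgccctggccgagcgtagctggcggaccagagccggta

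RefSeq promoter windows of 300 bases (250 before and 50 after the start) were matched for 7 of the 9 genes, all except HLA-E and NLRC5. In the heavy chain promoters an inverted CCAAT box began on the strand of the gene at position -81 from the start in HLA-B, -80 in HLA-C and -82 in HLA-F. Another lay on the opposite strand, at position -56 in HLA-B and HLA-C and -57 in HLA-F, and HLA-B and HLA-C held further copies. This box, which NFY binds, was present in 5 of the 7 genes and in 34.6% of all 35116 promoter windows. The CRE core was found in 4 of the 7 genes (HLA-B, HLA-C, B2M and TAP2) and in 24.6% of all windows. IRF cores occurred in HLA-F, B2M, TAP1, TAP2 and TAPBP, which is 5 of the 7 genes against 8.11% of all windows. In B2M, TAP1 and TAPBP there were 2 such cores, which overlap each other. The letters of the IRF core were not in the windows of HLA-B and HLA-C, which says nothing about binding there. An NF-kB consensus was present in 5 of the 7 genes and in 11.3% of windows, and the GC box GGGCGG in 4 and in 45.0%. The motifs were searched on both strands, and a match is a description of letters only. A gene was counted when any of its windows matched, and TAP1 had 2 windows, while the shares over all promoters count single windows.

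The libraries held between 23806003 and 49659106 reads on genes. Levels are given as CPM, read counts scaled to a common library size with TMM factors over all 9 libraries. ASAH1 was checked first, as the targeted gene. Its mean level was 135 ± 1.47 CPM (SD, n = 3) with NS shRNA, 40.0 ± 1.78 with shRNA #1 and 21.8 ± 0.623 with shRNA #2. The knockdown was deeper with shRNA #2, by a log2 difference of -0.89 (SE 0.0506, adjusted p = 6.84e-08, edgeR). Reads of the mesenchymal markers VIM, CD44 and AXL ran from 20719 to 72608 per library, ESR1 and PGR had at most 2 reads, and ERBB2 had from 1530 to 3581. Of the immune markers PTPRC had at most 8 reads, and CD3E and ITGAX at most 3. CD14 had 942 to 1018 reads with NS shRNA, 155 to 293 with shRNA #1 and 1054 to 1470 with shRNA #2. CD14 thus moved between the groups while the defining leukocyte markers stayed near 0. Of the endothelial markers PECAM1 had 39 to 102 reads, VWF at most 14 and CDH5 at most 3. Of the fibroblast markers COL1A1 had 545 to 965 reads, PDGFRB 774 to 1066 with NS shRNA against 351 to 493 with the ASAH1 hairpins, and LUM 137 to 140 against 31 to 126. Their part in the results was not tested. RNA from bulk cells cannot tell fewer expressing cells from less RNA per cell.

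HLA-B (chromosome 6 of hg38, 31353872 to 31367067, minus strand) encodes a classical heavy chain that presents to CD8+ T cells. Its level was 1162, 1112 and 987 CPM in the 3 NS shRNA libraries, 936, 975 and 1053 with shRNA #1, and 1967, 1812 and 2038 with shRNA #2. The NS shRNA and shRNA #1 libraries overlapped, and every shRNA #2 library lay above them. With shRNA #2 HLA-B rose 1.78-fold against NS shRNA (log2 fold change 0.83, SE 0.0694, adjusted p = 2.43e-06, limma). With shRNA #1 the log2 fold change was -0.14 (SE 0.0663, adjusted p = 0.0882), and the hairpins differed by 0.96 on the log2 scale (SE 0.0676, adjusted p = 3.54e-07, edgeR).

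HLA-C (chromosome 6, 31268749 to 31272130, minus strand), the other classical heavy chain followed here, is also a ligand of killer cell immunoglobulin-like receptors on natural killer cells. Its level was 423, 411 and 360 CPM with NS shRNA, 318, 355 and 387 with shRNA #1, and 662, 587 and 691 with shRNA #2. Again the shRNA #2 libraries stood apart and the other 2 groups overlapped. HLA-C rose 1.62-fold with shRNA #2 (log2 fold change 0.70, SE 0.076, adjusted p = 1.69e-05). With shRNA #1 its log2 fold change was -0.18 (SE 0.0783, adjusted p = 0.0704).

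The shRNA #1 values of HLA-B and HLA-C depended on single libraries. Without NS shRNA replicate 3, the NS library with the lowest level of both genes, HLA-B fell by 0.21 (adjusted p = 0.00931) and HLA-C by 0.24 (adjusted p = 0.0106) on the log2 scale. Without shRNA #1 replicate 3, the highest of its group for both, HLA-B fell by 0.19 (adjusted p = 0.0333) and HLA-C by 0.25 (adjusted p = 0.0135). Over all alternatives the adjusted p ran from 0.00931 to 0.269 for HLA-B and from 0.0106 to 0.243 for HLA-C.

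HLA-E (chromosome 6, 30489509 to 30494194, plus strand) presents leader peptides of other class I chains to the NKG2A receptor. Its level was 377, 371 and 368 CPM with NS shRNA, 415, 417 and 426 with shRNA #1, and 555, 543 and 560 with shRNA #2. The 3 groups did not overlap, and they rose in the order NS shRNA, shRNA #1, shRNA #2. HLA-E rose 1.12-fold with shRNA #1 (log2 fold change 0.17, SE 0.0395, adjusted p = 0.00411) and 1.48-fold with shRNA #2 (0.57, SE 0.0461, adjusted p = 2.07e-06). Between the hairpins the log2 difference was 0.39 (SE 0.0361, adjusted p = 3.1e-06). It was the only heavy chain member that passed the test with both hairpins in all 9 libraries.

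HLA-F (chromosome 6, 29722775 to 29738528, plus strand), a heavy chain that can reach the surface without peptide, was the least abundant of the 4. It had 10.7, 10.5 and 10.6 CPM with NS shRNA, 9.54, 9.40 and 10.5 with shRNA #1, and 20.6, 19.4 and 21.0 with shRNA #2. The shRNA #2 libraries stood well above both other groups. The rise with shRNA #2 was 1.92-fold (log2 fold change 0.94, SE 0.0749, adjusted p = 1.85e-06). With shRNA #1 the log2 fold change was -0.12 (SE 0.0784, adjusted p = 0.218), and the hairpins differed by 1.04 (SE 0.068, adjusted p = 1.91e-07).

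B2M (chromosome 15, 44711358 to 44718851, plus strand), without which the heavy chains do not reach the surface in their folded form, did not follow them. Its level was 1286, 1256 and 1141 CPM with NS shRNA, 922, 931 and 999 with shRNA #1, and 1117, 1133 and 1231 with shRNA #2. All shRNA #1 libraries lay below the rest, and the shRNA #2 libraries overlapped NS shRNA. B2M fell to 0.773 of the NS level with shRNA #1 (log2 fold change -0.37, SE 0.055, adjusted p = 0.000248). With shRNA #2 the log2 fold change was -0.08 (SE 0.0608, adjusted p = 0.241). The hairpins differed by 0.28 (SE 0.0563, adjusted p = 0.00121).

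**Figure D1:**
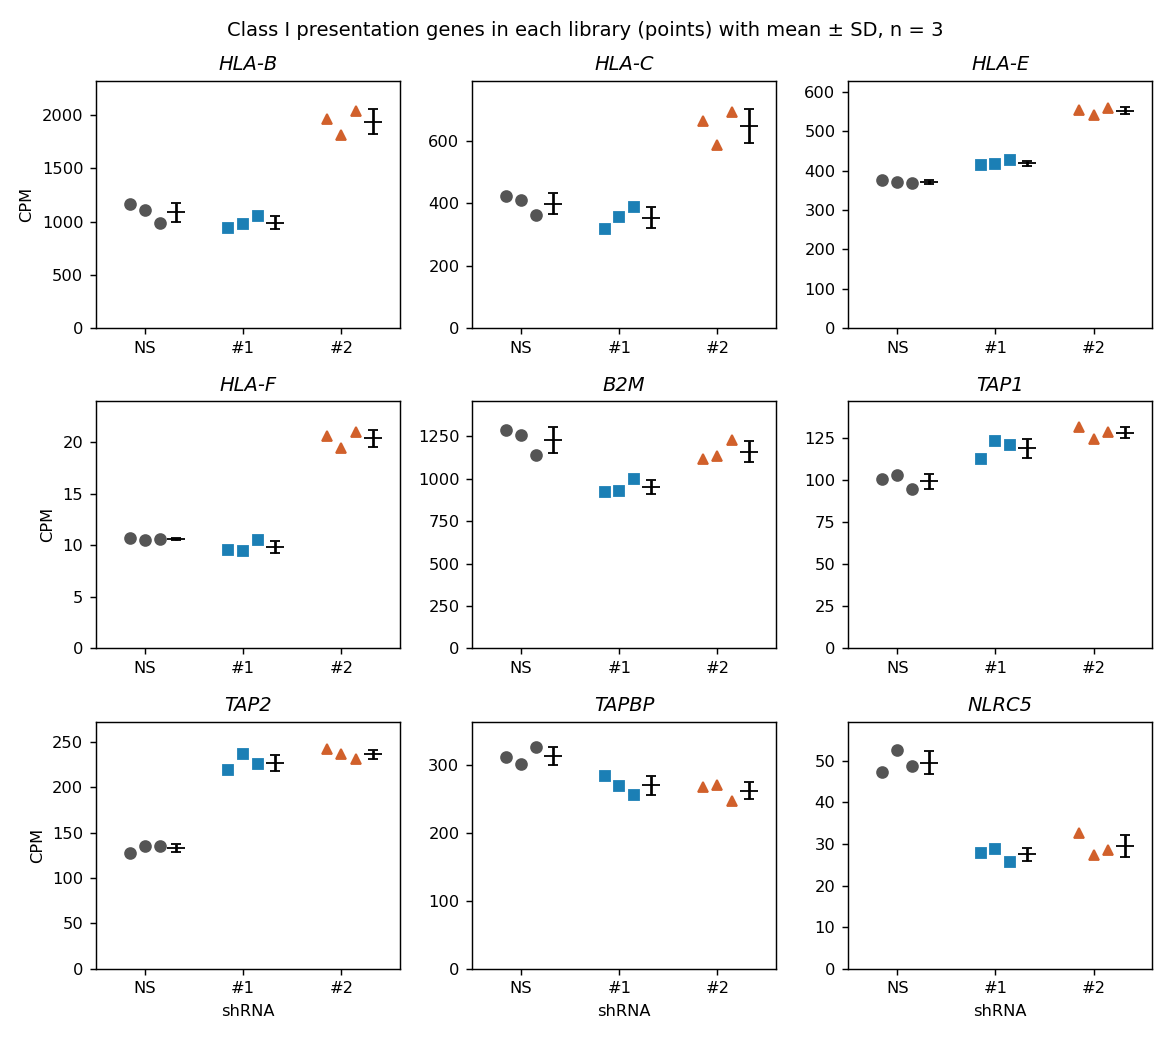
CPM (y axis, from 0) of each of the 9 genes in the 3 libraries of NS shRNA (circles), ASAH1 shRNA #1 (squares) and ASAH1 shRNA #2 (triangles), with the mean and SD of each group as bars. The shRNA #2 libraries stand above all others for HLA-B, HLA-C, HLA-E and HLA-F, both hairpins stand above NS shRNA for TAP2, and both stand below it for NLRC5.

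The transporter genes rose with both hairpins. TAP2 (chromosome 6, 32821833 to 32838739, minus strand) had 128, 135 and 136 CPM with NS shRNA, 219, 237 and 225 with shRNA #1, and 241, 236 and 231 with shRNA #2. Both hairpin groups lay far above NS shRNA and overlapped each other. TAP2 rose 1.70-fold with shRNA #1 (log2 fold change 0.77, SE 0.048, adjusted p = 9.78e-07) and 1.77-fold with shRNA #2 (0.83, SE 0.052, adjusted p = 3.68e-07). Between the hairpins the log2 difference was 0.05 (SE 0.0448, adjusted p = 0.377).

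TAP1 (chromosome 6, 32845209 to 32853816, minus strand), the partner subunit, moved the same way by less. It had 101, 103 and 94.4 CPM with NS shRNA, 113, 123 and 121 with shRNA #1, and 131, 125 and 128 with shRNA #2. Neither hairpin group overlapped NS shRNA. The rise was 1.19-fold with shRNA #1 (log2 fold change 0.26, SE 0.0524, adjusted p = 0.0019) and 1.29-fold with shRNA #2 (0.37, SE 0.0558, adjusted p = 0.000188). The log2 difference between the hairpins was 0.10 (SE 0.0518, adjusted p = 0.125).

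TAPBP (chromosome 6, 33299694 to 33314284, minus strand), whose product bridges the transporter and the empty class I molecule, went the other way. Its level was 312, 302 and 327 CPM with NS shRNA, 285, 270 and 257 with shRNA #1, and 269, 272 and 248 with shRNA #2. Every hairpin library lay below every NS shRNA library. TAPBP fell to 0.860 of the NS level with shRNA #1 (log2 fold change -0.22, SE 0.0552, adjusted p = 0.00621) and to 0.835 with shRNA #2 (-0.26, SE 0.057, adjusted p = 0.00217).

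NLRC5 (chromosome 16, 56989485 to 57083531, plus strand), the transactivator, fell furthest of the 9 genes. It had 47.3, 52.6 and 48.6 CPM with NS shRNA, 27.9, 28.8 and 25.7 with shRNA #1, and 32.5, 27.4 and 28.5 with shRNA #2. The hairpin groups overlapped each other and both lay well below NS shRNA. NLRC5 fell to 0.554 of the NS level with shRNA #1 (log2 fold change -0.85, SE 0.0657, adjusted p = 3.49e-06) and to 0.593 with shRNA #2 (-0.75, SE 0.0797, adjusted p = 1.33e-05). The hairpins differed by a log2 value of 0.09 (SE 0.0752, adjusted p = 0.33).

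Counted over the 9 genes, 3 rose and 3 fell with shRNA #1. Over all 14341 genes tested in that comparison, 32.8% were called higher and 33.3% lower, so these shares of the 9 genes are those of the background. With shRNA #2, 6 genes rose and 2 fell, against 33.5% called higher and 33.4% called lower among 14250 genes. In the direct comparison, 5 genes were higher with shRNA #2 than with shRNA #1 and 0 lower, against 31.4% higher and 32.5% lower among 14381 genes (edgeR). The count of 0 lower genes was also 0 at an unadjusted p below 0.05, and so it was with limma and with DESeq2 on the same reads, while upper quartile factors gave 1 at an unadjusted p. The median log2 fold change of the 9 genes was -0.14 with shRNA #1 and 0.57 with shRNA #2, beside 0.0013 and 0.013 over all genes tested. A call of a single gene is common in these data, and the size of the change tells more than the call.

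**Figure D2:**
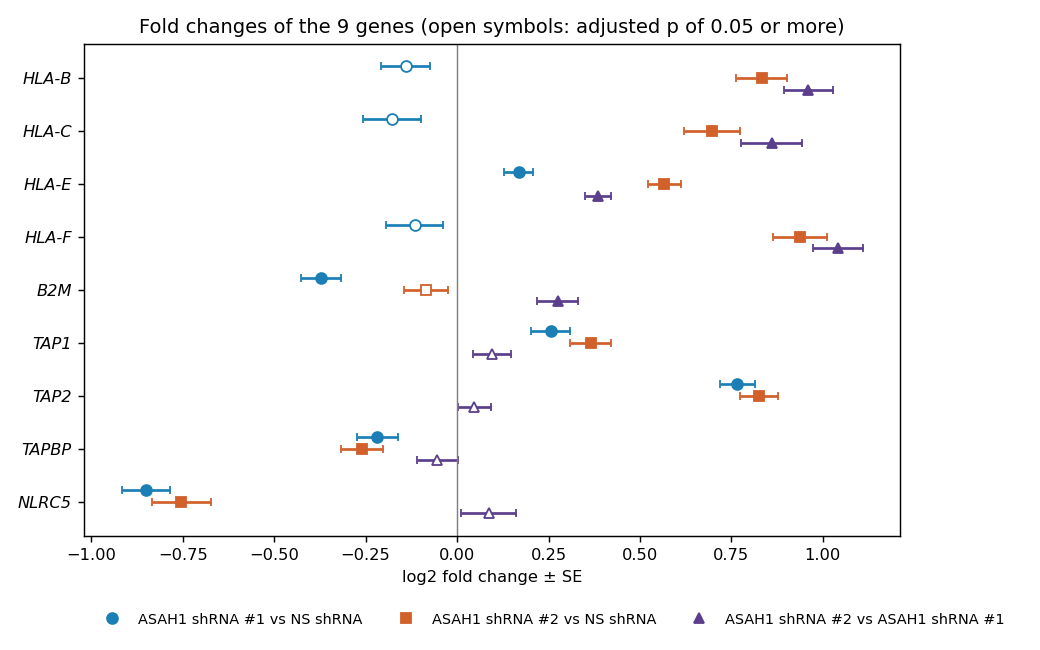
Log2 fold change (x axis) with its SE for each of the 9 genes in the 3 comparisons, where open symbols have an adjusted p of 0.05 or more. Between the hairpins the SE is derived from the test statistic. The 4 heavy chain genes lie between 0.57 and 0.94 with shRNA #2 and between -0.18 and 0.17 with shRNA #1, while the 2 hairpins lie side by side for TAP1, TAP2, TAPBP and NLRC5.

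Levels of different genes were compared per kb of the canonical GENCODE transcript. With NS shRNA, B2M led with 1302 ± 80.8 CPM per kb (SD, n = 3), followed by HLA-B with 708 ± 59.0, HLA-C with 258 ± 21.5 and HLA-E with 146 ± 1.80. The loading genes came next, with 90.9 ± 3.73 for TAPBP, 37.0 ± 1.61 for TAP1 and 23.5 ± 0.781 for TAP2. NLRC5 with 7.30 ± 0.408 and HLA-F with 7.15 ± 0.0711 closed the order and lay within 1 SD of each other. With shRNA #1 the order was the same down to TAP2, and HLA-F (6.62 ± 0.391) stood above NLRC5 (4.06 ± 0.234). With shRNA #2, HLA-B (1262 ± 75.1) drew level with B2M (1231 ± 65.4), within 1 SD, and HLA-F (13.8 ± 0.549) stood well above NLRC5 (4.35 ± 0.396).

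**Figure D3:**
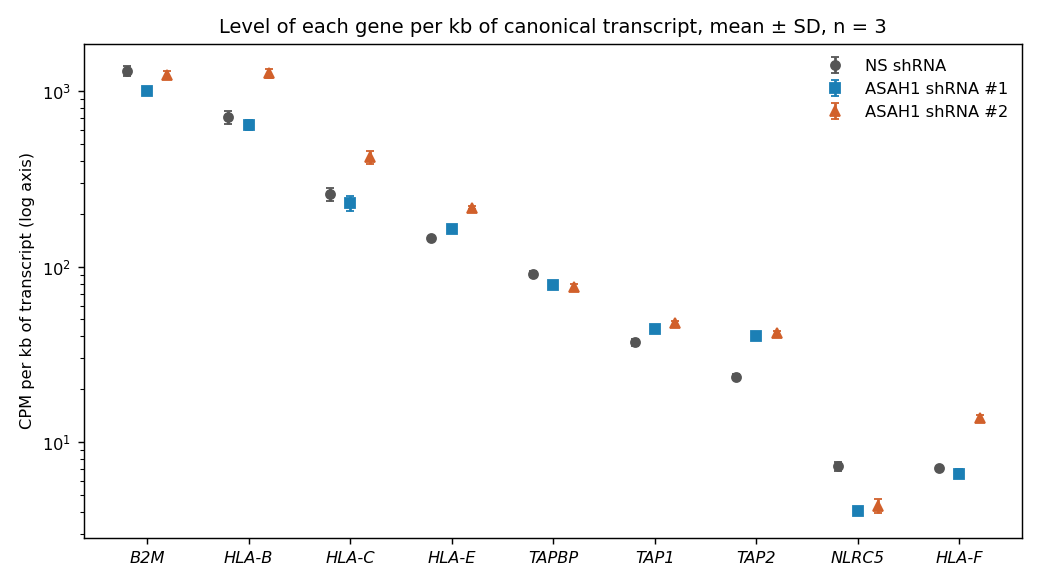
Level of each gene in CPM per kb of canonical transcript (log axis), as the mean and SD of 3 libraries for NS shRNA (circles), ASAH1 shRNA #1 (squares) and ASAH1 shRNA #2 (triangles). HLA-B meets B2M at the top in the shRNA #2 group, and NLRC5 and HLA-F part at the bottom in both ASAH1 shRNA groups.

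Set against the light chain within each library, the summed heavy chain RNA of the 4 genes per kb was 0.870, 0.858 and 0.849 of B2M with NS shRNA. The ratio was 1.01, 1.05 and 1.05 with shRNA #1 and 1.64, 1.49 and 1.54 with shRNA #2. The 3 groups did not overlap in this ratio. A ratio shows unequal change only: with shRNA #1 B2M fell, and with shRNA #2 the heavy chains rose. The TAP2 to TAP1 ratio was 0.638 ± 0.0411 (SD, n = 3) with NS shRNA, 0.908 ± 0.0194 with shRNA #1 and 0.877 ± 0.0220 with shRNA #2. PSMB9, an immunoproteasome subunit that is transcribed away from TAP1 out of a shared promoter region, stood at 0.835 ± 0.0944 of TAP1 with NS shRNA, 0.409 ± 0.0378 with shRNA #1 and 0.570 ± 0.0550 with shRNA #2. The ratio was thus lower with both hairpins, while TAP1 itself rose.

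**Figure D4:**
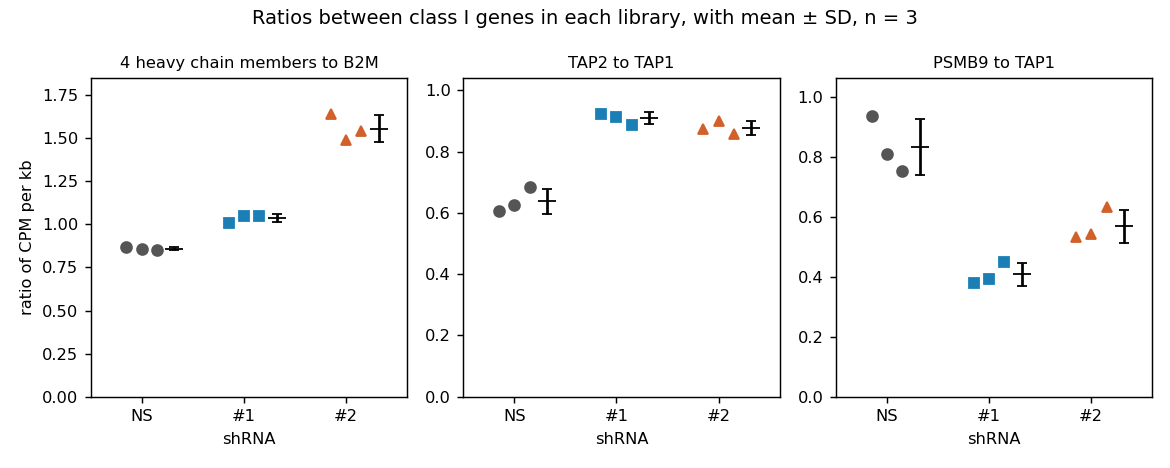
Ratios of CPM per kb in each library (points) with the mean and SD of 3 libraries, for the 4 heavy chain genes summed over B2M, TAP2 over TAP1 and PSMB9 over TAP1. The heavy chain ratio climbs from a mean of 0.859 with NS shRNA to 1.03 with shRNA #1 and 1.55 with shRNA #2, and the PSMB9 ratio is highest with NS shRNA.

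Across the 9 libraries the heavy chain genes varied together. Pearson's r of log2(CPM + 1) was 0.993 between HLA-B and HLA-C, 0.989 between HLA-B and HLA-F and 0.903 between HLA-B and HLA-E. B2M ran with HLA-B at only 0.453. TAP2 and TAP1 had an r of 0.938, and NLRC5 ran against TAP2 at -0.947. These values describe 9 libraries that fall into 3 groups, so they are not independent points. Among 11622 genes with a mean of at least 100 reads, the genes most like HLA-B were HLA-H, a class I pseudogene (0.996), IER5 (0.995) and CAPZB (0.994). SNX24, MIR22HG and IRAK1 were most like HLA-E (0.999, 0.998 and 0.998), and FBXO2 and HLA-H were among the 3 most like HLA-C (both 0.997). For HLA-F they were NGFR, TOMM20 and DONSON (0.997, 0.996 and 0.996). B2M was followed most closely by SERTAD4-AS1 (0.997), MRPL16 (0.996) and GINS2 (0.993), and TAP1 by ZNF79 (0.988), WDR53 (0.984) and IMP4 (0.984). DDX31, GEMIN5 and IARS ran with TAP2 (each 0.998), CHST3, KIAA1217 and VAMP1 with TAPBP (0.981, 0.981 and 0.980), and PLEKHG4, GXYLT2 and ANKRD36 with NLRC5 (0.994, 0.991 and 0.989). No shared control of these genes is implied.

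Reads of HLA genes can be shared between copies. In the reference transcripts, 0.169% of the 76-base windows of HLA-B also occur in another HLA gene, 1.26% of those of HLA-C, 1.64% of those of HLA-E and 0% of those of HLA-F. The read length was 76 bases. The cells carry their own alleles, which were not looked at, so how reads of HLA-B and HLA-C mapped to the reference alleles was not tested. HLA-H stood at 53.8 ± 2.40 CPM (SD, n = 3) with NS shRNA, 50.4 ± 2.24 with shRNA #1 and 74.4 ± 4.54 with shRNA #2. Its log2 fold change was -0.10 with shRNA #1 (adjusted p = 0.154) and 0.46 with shRNA #2 (SE 0.066, adjusted p = 0.000118), and it shares sequence with HLA-C. HLA-L, another class I pseudogene, rose with both hairpins, by log2 values of 0.49 (adjusted p = 0.00148) and 0.36 (adjusted p = 0.0119). HLA-F-AS1, the antisense transcript that overlaps HLA-F over 11928 bases, fell by 1.23 on the log2 scale with shRNA #1 (SE 0.175, adjusted p = 0.000189). It was 1.31 higher with shRNA #2 than with shRNA #1 (SE 0.179, adjusted p = 6.38e-05). With shRNA #2 against NS shRNA its log2 fold change was 0.08 (adjusted p = 0.691), so HLA-F rose there beside an antisense transcript that did not pass the test. The counting used the strand, according to the methods of the study. In all, 27 symbols of the tables begin with HLA-, of which 24, 23 and 24 were tested with shRNA #1, with shRNA #2 and between the hairpins.

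The rest of the loading machinery was followed through 16 genes for the immunoproteasome, peptide trimming and chaperones. With shRNA #1, 2 of the 16 rose, 9 fell and 5 did not pass the test, with a median log2 fold change of -0.31, beside 32.8% of all genes called higher and 33.3% lower. The largest falls were in TAPBPL, a tapasin relative that edits peptides (log2 fold change -0.80, SE 0.122), and in PSMB9 (-0.77, SE 0.114). TPP2, a cytosolic peptidase, rose (0.28, SE 0.0708), and it also rose with shRNA #2 (0.28, SE 0.0742). With shRNA #2, 6 rose, 5 fell and 5 did not pass the test, with a median of 0.13, which is near the 33.5% higher and 33.4% lower of all genes. CANX, which encodes the chaperone calnexin that holds newly made heavy chains, had 1342 ± 30.2 CPM (SD, n = 3) with NS shRNA, 1423 ± 38.6 with shRNA #1 and 2152 ± 34.2 with shRNA #2, and rose with shRNA #2 by a log2 value of 0.68 (SE 0.0472, adjusted p = 7.41e-07). NRDC, a peptidase listed in the tables as NRD1, rose by 0.67 (SE 0.0481), and TAPBPL fell again (-0.59, SE 0.124). CALR and PDIA3, also among the chaperone genes of this list, fell with both hairpins. The log2 fold changes of CALR were -0.38 with shRNA #1 (adjusted p = 4.42e-05, limma) and -0.45 with shRNA #2 (adjusted p = 1.5e-05). Those of PDIA3 were -0.41 (adjusted p = 2.82e-05) and -0.13 (adjusted p = 0.0314). CALR and PDIA3 were named after their values were seen. The trimming aminopeptidases of the endoplasmic reticulum parted with shRNA #2: ERAP1 rose (0.45, SE 0.0802, adjusted p = 0.000579) and ERAP2 fell (-0.86, SE 0.109, adjusted p = 4.83e-05). With shRNA #1 both fell, ERAP1 by 0.25 (SE 0.0773, adjusted p = 0.018) and ERAP2 by 0.59 (SE 0.0889, adjusted p = 0.000278, limma). Between the hairpins, 10 of the 16 were higher with shRNA #2 and 1 lower, against 31.4% and 32.5% of all genes, and the higher ones were led by ERAP1 (0.68, SE 0.0753) and PSME1, a subunit of the proteasome activator (0.63, SE 0.0629). PSMB9 was also higher with shRNA #2 than with shRNA #1 (0.57, SE 0.115, adjusted p = 0.00109), although its difference from NS shRNA there was -0.18 (adjusted p = 0.154), which passed only without NS shRNA replicate 3 (-0.29, adjusted p = 0.0185). ERAP2 was the lower one (-0.27, adjusted p = 0.043), and it no longer passed without shRNA #1 replicate 1 or 2 or shRNA #2 replicate 1 or 3, with an adjusted p from 0.00402 to 0.147 over all alternatives.

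A further list held 28 regulators of class I and interferon signaling. With shRNA #1, 10 rose, 10 fell and 8 did not pass the test (median 0.015). With shRNA #2, 8 rose, 9 fell and 11 did not pass (median 0.081). Over all genes tested, 32.8% were called higher and 33.3% lower with shRNA #1, and 33.5% and 33.4% with shRNA #2, so these counts are near the background and say nothing particular of the regulators. IRF1, which binds interferon response elements of class I genes, had 85.0, 80.6 and 77.9 CPM with NS shRNA, 106, 111 and 117 with shRNA #1, and 182, 180 and 193 with shRNA #2. The 3 groups did not overlap and stood in the same order as for HLA-E. IRF1 rose 1.37-fold with shRNA #1 (log2 fold change 0.45, SE 0.0541, adjusted p = 6.11e-05) and 2.27-fold with shRNA #2 (1.19, SE 0.0571, adjusted p = 6.87e-08), and the hairpins differed by 0.72 (SE 0.0548, adjusted p = 6.24e-07).

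NFYC, a subunit of the factor that binds the inverted CCAAT box, rose by 1.08 with shRNA #1 (SE 0.0774) and by 0.56 with shRNA #2 (SE 0.0899). Of the other subunits of that factor, NFYB fell on the log2 scale by 0.42 with shRNA #1 (adjusted p = 0.000158) and by 0.52 with shRNA #2 (adjusted p = 2.16e-05). NFYA stood at 0.03 (adjusted p = 0.744) and 0.14 (adjusted p = 0.193). NFYA and NFYB were named after their values were seen. RFX5, the DNA-binding subunit of the RFX complex, rose with shRNA #1 (0.29, SE 0.0461, adjusted p = 0.000367) and stood at -0.03 with shRNA #2 (adjusted p = 0.602). RFXAP, its partner, rose by 0.51 with shRNA #1 (SE 0.135) and by 0.38 with shRNA #2 (SE 0.143, adjusted p = 0.0382, limma). The RFXAP call with shRNA #2 was not checked under the alternatives. CIITA, the class II transactivator and a relative of NLRC5, fell by 0.56 with shRNA #2 (SE 0.102, adjusted p = 0.000624) and stood at -0.19 with shRNA #1 (adjusted p = 0.0727, or 0.0254 without NS shRNA replicate 2). Larger falls with shRNA #1 were those of SOCS3, a feedback inhibitor of cytokine signals (-0.77), and IFNAR2, a subunit of the type I interferon receptor (-0.67). With shRNA #2 they were those of SOCS1 (-0.76), another such inhibitor, and STAT2 (-0.71), a transducer of type I interferon signals. SOCS1 (-0.62) and STAT2 (-0.26) also fell with shRNA #1, and SOCS3 (-0.48) also fell with shRNA #2. IFNAR2 stood at -0.18 with shRNA #2 (adjusted p = 0.067, limma). IFNAR1, the other subunit of that receptor, rose by 0.46 with shRNA #1 (adjusted p = 0.000515, limma) and by 0.39 with shRNA #2 (adjusted p = 0.000742, limma). It was named after its values were seen. Between the hairpins, 6 of the 28 regulators were higher with shRNA #2 and 9 lower, beside 31.4% and 32.5% of all genes. The higher ones were led by IRF1 and SUZ12 (0.64), a Polycomb subunit. The lower ones were led by IFNGR2 (-0.57) and IRF9 (-0.54), parts of interferon receptor signaling.

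The class I-like genes, whose products mostly bind natural killer or other innate receptors, were followed as another list. Of 15 genes, 12 were tested with shRNA #1, of which 5 rose, 3 fell and 4 did not pass (median 0.18). With shRNA #2, 11 were tested, of which 3 rose, 6 fell and 2 did not pass (median -0.30). ULBP1, CD1D and AZGP1 had too few reads in any comparison. RAET1G, a ligand of the activating receptor NKG2D, had 6.32 ± 0.555 CPM (SD, n = 3) with NS shRNA, 3.16 ± 0.326 with shRNA #1 and 1.51 ± 0.380 with shRNA #2, and fell by log2 values of 1.00 (SE 0.12) and 2.07 (SE 0.176). RAET1E, a relative of it, rose with shRNA #1 (0.62, SE 0.116) and fell with shRNA #2 (-1.59, SE 0.221). RAET1L, tested only with shRNA #1 and between the hairpins because it passed the filter through the shRNA #1 libraries, had under 1 CPM in every library. The counts and median of this list with shRNA #1 include RAET1L as a rise, and the counts between the hairpins include it as lower. With a minimum mean of 50, which RAET1L did not reach, 4 genes of the list were called higher and 3 lower with shRNA #1. HFE, an iron regulator with a class I fold, fell by 0.59 with shRNA #1 (SE 0.0815) and by 0.52 with shRNA #2 (SE 0.104, adjusted p = 0.00114, limma). ULBP2, also an NKG2D ligand, rose with shRNA #2 (0.39, SE 0.0764). HLA-G rose with shRNA #2 by 0.35 (SE 0.134, adjusted p = 0.0386), a call that was lost without NS shRNA replicate 1 or 3 or shRNA #2 replicate 1 or 3, with no filter (adjusted p = 0.0683), with upper quartile rescaling (0.0626) and with DESeq2 (0.0534). Its adjusted p ran from 0.0156 to 0.154 over all alternatives. Between the hairpins 2 of 12 were higher with shRNA #2 and 7 lower. The share of all genes called was 32.8% higher and 33.3% lower with shRNA #1, which the counts of this list are near, 33.5% and 33.4% with shRNA #2, and 31.4% and 32.5% between the hairpins.

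Class II genes, which present peptides from outside the cell, fell with both hairpins. Of 12 genes, 10 fell with shRNA #1 and 8 with shRNA #2, 1 rose with each, and the medians were -0.45 and -0.37. Of all genes tested, 33.3% were called lower with shRNA #1 and 33.4% with shRNA #2. CD74, the invariant chain, had 666, 646 and 674 CPM with NS shRNA, 434, 428 and 425 with shRNA #1, and 297, 322 and 291 with shRNA #2. It fell with shRNA #2 by 1.13 on the log2 scale (SE 0.0543, adjusted p = 6.8e-08). HLA-DRA fell by 0.45 with shRNA #1 (SE 0.0515) and by 0.49 with shRNA #2 (SE 0.0568). Of the list, HLA-DQB1 (-0.89) and HLA-DPB1 (-0.83) fell most with shRNA #1, and HLA-DMB (-1.28), part of the class II peptide exchanger, with shRNA #2. HLA-DOB, a modulator of that exchanger, was the one that rose, from 1.26 ± 0.331 CPM (SD, n = 3) with NS shRNA to 2.38 ± 0.454 with shRNA #1 (adjusted p = 0.00492) and 4.66 ± 0.640 with shRNA #2 (adjusted p = 1.4e-05). HLA-DOB lies 1367 bases beyond the last base of TAP2 on the same strand, and whether reads that run on from TAP2 are counted in it was not tested. Between the hairpins 6 of the 12 were higher with shRNA #2 and 4 lower, beside 31.4% and 32.5% of all genes, with HLA-DOB (0.96) and HLA-DQB1 (0.55) leading the former and HLA-DQA1 (-0.73) and HLA-DMB (-0.58) the latter. The call of HLA-DQA1 was lost without shRNA #1 replicate 2 (-0.62, adjusted p = 0.0527).

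**Figure D5:**
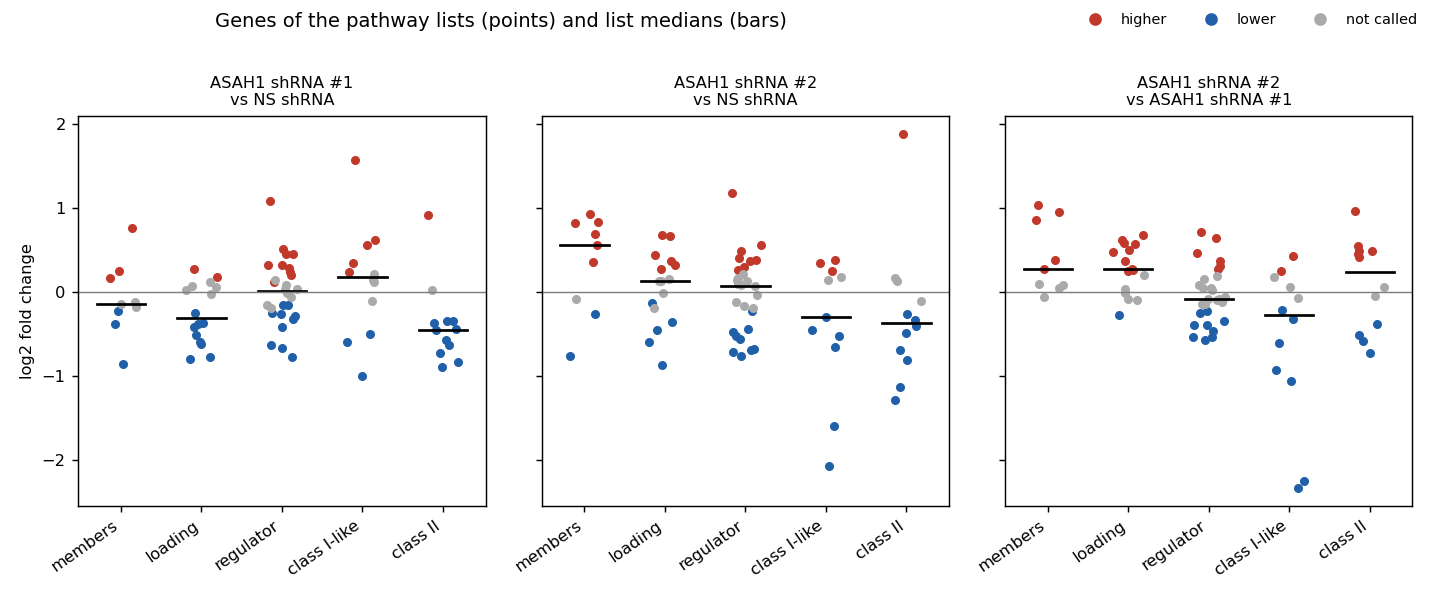
Log2 fold change (y axis) of each tested gene (points) of the 9 genes and of the loading, regulator, class I-like and class II lists in the 3 comparisons, with the list median as a bar and colors for genes called higher, lower or not called. The bar of the 9 genes is at -0.14 with shRNA #1 and 0.57 with shRNA #2, and the class II bar is below 0 in both comparisons with NS shRNA.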

How the data were processed

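Sequencing of MDA-MB-231 RNA gave single-end reads of 76 bases in 9 libraries. Per the labels and the methods, the authors used Trimmomatic 0.36 for trimming, STAR 2.7.1a for alignment to hg38 and htseq-count (HTSeq), by reverse strand, for a count per UCSC gene. For each ASAH1 shRNA they then normalized its libraries and the NS shRNA libraries with DESeq2 1.28, in a table of its own. A second methods paragraph names Bowtie2, RSEM, TMM and edgeR. The labels mention both oligo-dT selection and ribosomal depletion, and which applies is not settled in the sources used here. The deposited normalized signal is a read count divided by a size factor per library. The tables also hold a log2 fold change with its standard error, a score (the test statistic) and a p-value for each gene as deposited by the authors, none of which were used.

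Dividing by the value of 1 read gave whole reads for 100% of values. The margin was 0.01 reads for low counts and widened in proportion for high counts. The most abundant genes would therefore have passed in any case. The NS shRNA reads were the same in both tables. Dates stood in place of 28 symbols for shRNA #1, which were restored from the shRNA #2 table. 1 list gene, NRDC, was found under an older symbol. Limma 3.58.1 with an intensity trend was run in R 4.3.3 on log2(normalized count + 1) within each table, as a two-sided test of the genes whose mean was 10 or more, with Benjamini-Hochberg adjustment at 0.05 over all genes tested. Fold changes on this scale understate those of low genes. The hairpins were compared by edgeR 4.0.16, whose quasi-likelihood fit took the reads of the 9 libraries together with TMM factors, and per-library values are CPM from the same factors. The edgeR fit gives no SE, so the SE printed between the hairpins is the absolute log2 difference divided by the square root of the F statistic. Positions and transcript lengths are from GENCODE v44 and promoters from RefSeq (GRCh38.p14). On simulated data, checks recovered known changes in a small set of genes with means well above the filter. They did not test the fits where as many genes change as were called here. Replicates of a group differed by a chi-square per gene of 5.54 to 25.0, far above sampling noise.

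Alternatives were pseudocounts of 0.1 and 5, a minimum mean of 50 or none, upper quartile scaling, limma with no intensity trend, DESeq2 1.42.0 or edgeR on reads, 1 limma fit of 9 libraries, the replicate block and each library left out in turn. The 9 genes and the 4 lists were chosen with earlier results of these data known. Genes named are the 9, ASAH1, genes whose symbol begins with HLA-, the 2 largest rises and falls called per list and comparison, PSMB9, CIITA, RFX5 and IRF1, and the 3 genes most like each of the 9. Some items that this rule also covers are not reported here.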

Additional observations from a re-analysis of the deposited data

Results flagged for a closer look

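The effect of the 2 ASAH1 hairpins differed at 5 of the 9 genes when they were compared directly (edgeR with TMM factors, all 9 libraries). Of all 14381 genes tested there, 31.4% were called higher with shRNA #2 and 32.5% lower, so a difference between the hairpins is common. Levels with shRNA #2 exceeded those with shRNA #1 by log2 differences of 1.04 for HLA-F, 0.96 for HLA-B, 0.86 for HLA-C, 0.39 for HLA-E and 0.28 for B2M. At each of these 5 genes every shRNA #2 library lay above every shRNA #1 library. ASAH1 itself was lower with shRNA #2 than with shRNA #1, and whether the depth of knockdown has a part in these differences was not tested.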

How the results depend on the processing

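Of the 27 values of the 9 genes in 3 comparisons, 24 kept their direction and their side of the threshold under every alternative. The exceptions were HLA-B and HLA-C with shRNA #1, given above, and TAP2 between the hairpins, which stood at -0.028 with upper quartile factors. The count of genes called among the 9 ran from 6 to 8 with shRNA #1 over the libraries left out in turn. HLA-F-AS1 with shRNA #2 against NS shRNA ran from -0.036 (without NS shRNA replicate 1) to 0.18 as single libraries were left out. The causes were not tested. With the replicate number as a block, 6, 8 and 5 of the 9 genes were called, as without it. Shares of all genes called in the main fits were 32.8% higher and 33.3% lower with shRNA #1. These shares were 33.5% and 33.4% with shRNA #2, and 31.4% and 32.5% between the hairpins. Under the block ASAH1 kept its fall. Among the values of named genes that were checked under the alternatives, the calls of HLA-G with shRNA #2 and ERAP2 between the hairpins were lost. Not every named value was checked in this way, and RFXAP with shRNA #2 is among those that were not. Deviations of libraries with the same number correlated from -0.731 to -0.173 between NS shRNA and either hairpin. Libraries with different numbers reached 0.654 there, so the numbers do not pair the NS shRNA libraries with the hairpin libraries. Between the hairpins, libraries with the same number correlated from 0.0335 to 0.620, and whether the numbers pair those libraries was not tested. No count of a list moved by more than 1.5 times. Low read numbers limit the precision of genes at a few CPM, such as HLA-F-AS1, HLA-DOB and HLA-G.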
